A study of Mus musculus with 6 samples.

Results

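The genes described here make cholesterol in the mouse liver and control its making: 26 genes, out of 54777 in the expression table, that cover sterol sensing by SREBP2 (4 genes), synthesis from acetyl-CoA to the prenyl diphosphates (8 genes), to lanosterol (3 genes) and on to cholesterol (8 genes), and LDL receptor degradation and sterol carriage (3 genes). They were listed by name for their role with no measured value in the rule, though by then earlier results of these data were known, and all 26 passed the filter of a mean of at least 0.2 FPKM that left 16547 genes to be tested. FPKM count fragments per length of the gene and per library size. The gene length used was 5593 bases for Tm7sf2, whose longest annotated coding transcript has 1498, while both were 1375 bases for Tmem97. Levels of different genes therefore compare only roughly. The data were bulk RNA sequencing of whole livers from mice with and without Wtap in hepatocytes, collected to ask how the hepatic mRNA profile depends on this subunit of the complex that writes N6-methyladenosine on RNA. Wtap-HKO mice (3 livers) carried 2 floxed Wtap alleles and Cre under the albumin promoter, which deletes exon 4 in hepatocytes and leaves it in the other cells of the liver. Wtap-flox mice (3 livers) carried the same floxed alleles and are labelled with no Cre, so no group had an unmodified Wtap locus and no group carried Cre alone. All mice were males of 8 weeks on normal chow, of strain C57BL/6 by the labels and C57BL/6J by the study's methods, and each library was described as 1 independent mouse.

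Hepatocytes make cholesterol from acetyl-CoA through mevalonate, the prenyl diphosphates, squalene and lanosterol. The transcription factor SREBP2 is made as a membrane protein of the endoplasmic reticulum and is bound there by its escort SCAP. When sterols are plentiful, INSIG proteins hold this pair in place, and when sterols run low SCAP carries SREBP2 to the Golgi, where it is cut and released to the nucleus. There it binds sterol regulatory elements, usually beside boxes for NF-Y and Sp1, and raises the transcription of nearly the whole pathway, its own gene and Insig1 included.

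The rebuilt depth was 15559250 to 18510477 reads per library, and the first principal component, which held 62.6% of the variance, set the groups apart. The deposited FPKM also contained a scaling between the libraries, because the library size behind them was 1.17 to 1.24 times the sum of reads in Wtap-HKO and 0.834 to 0.846 times in Wtap-flox. Their median-of-ratios factor, the median over genes of a library's ratio to the geometric mean of the libraries, was 1.006 in every library. The values were thus already level by that measure, which holds the median difference over all genes near 0. Setting the sum of FPKM equal in every library (the TPM scale) raised the median difference over all genes to 0.56 on the log2 scale, against 0.0054 as deposited. Absolute direction therefore depends on the scale, and for each gene below it is said where the call or the direction changed on the TPM scale. Wtap stood at 5.86, 6.45 and 5.77 FPKM in Wtap-HKO replicates 1, 2 and 3 and at 5.31, 5.94 and 5.56 FPKM in Wtap-flox, and on the TPM scale it was called higher in Wtap-HKO (log2 fold change 0.68, against 0.10 as deposited). This does not check the deletion, since a value over the whole gene includes every exon that the Cre leaves.

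Most of the sterol genes had less mRNA in Wtap-HKO liver than in Wtap-flox liver on the deposited scale, and Insig1 and Stard4 fell most. By limma on log2(FPKM + 0.2), with Benjamini-Hochberg adjustment over all genes tested, 14 of the 26 genes were called lower at an adjusted p under 0.05, where 20.7% of all genes were. A single gene, Tmem97, was called higher, where 19.5% of all genes were, and 11 genes passed in neither direction. The median log2 fold change over the 26 genes was -0.78. In 17 genes every Wtap-HKO library was below every Wtap-flox library, a pattern seen in 27.4% of all genes tested. In 2 genes, Tmem97 and Mylip, every Wtap-HKO library was above, as in 26.8% of all genes, and 7 genes overlapped. On the TPM scale 6 genes were lower (Insig1, Srebf2, Idi1, Tm7sf2, Msmo1 and Stard4), where 6.02% of all genes were, and 4 were higher (Tmem97, Mylip, Fdft1 and Dhcr7), where 48.8% of all genes were. The median of the 26 genes was then -0.20, and on both scales 23 of the 26 lay below the median of all genes tested. In bulk liver, fewer cells of a type and less RNA per cell cannot be told apart, and 6 of 7 hepatocyte markers were lower as well, with a median log2 fold change of -1.05 as deposited and -0.46 on the TPM scale. Their part in the sterol genes was not tested.

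**Figure D1:**
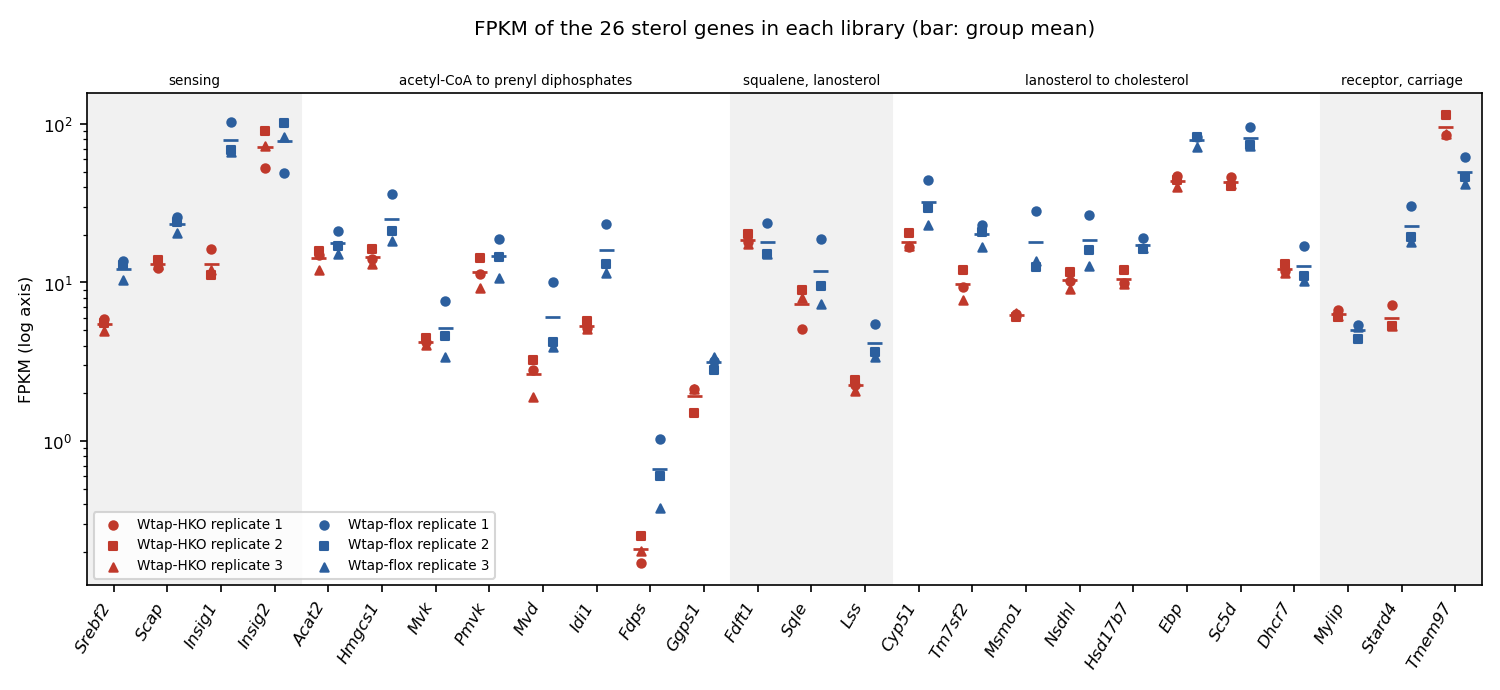
FPKM (log axis) of the 26 sterol genes in each of the 3 Wtap-HKO libraries (red) and the 3 Wtap-flox libraries (blue), ordered by role, with a bar at each group mean and a marker shape for each replicate number. In 17 genes all Wtap-HKO points lie under all Wtap-flox points, and in 24 genes the circle of Wtap-flox replicate 1 is the highest of its group.

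Wtap-flox replicate 1 stood apart in this pathway. It was the highest of the 3 Wtap-flox libraries in 24 of the 26 genes, all but Insig2 and Ggps1, while it was the highest in 32.1% of all genes tested. Over the 26 genes its median log2 distance above replicates 2 and 3 was 0.61, against -0.0006 over all genes. Wtap-flox replicate 3 was the lowest of its group in 21 genes. The median SD of log2 values was 0.16 in Wtap-HKO and 0.38 in Wtap-flox over the 26 genes, and 0.20 in Wtap-HKO and 0.18 in Wtap-flox over all genes tested. Wtap-flox replicate 1 also had the lowest depth (15559250 reads), whose part in these values was not tested. Without Wtap-flox replicate 1, 12 genes were lower, where 15.8% of all genes were in the same fit, 1 was higher, where 14.2% were, and the median was -0.61.

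**Figure D2:**
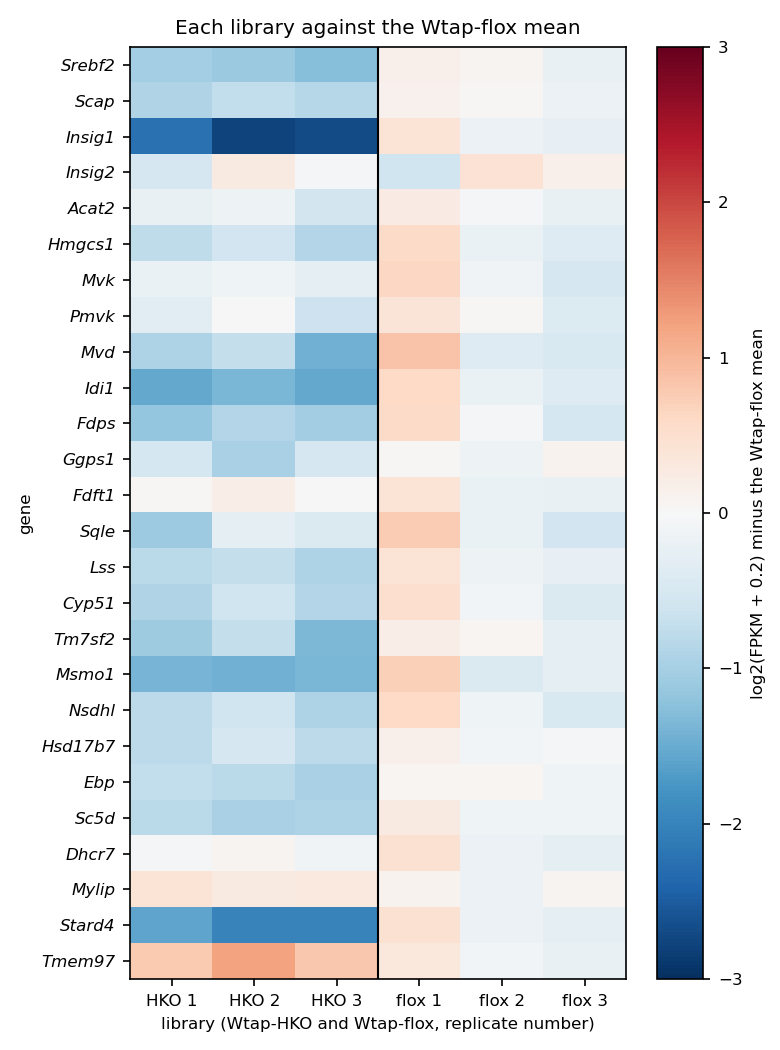
Each row is a sterol gene and each column a library, coloured by log2(FPKM + 0.2) minus the mean of the Wtap-flox libraries (blue lower, red higher). The column of Wtap-flox replicate 1 is red in nearly every row, and the 3 Wtap-HKO columns are blue in most rows and red in Mylip and Tmem97.

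Among the sensing genes, Srebf2, Scap and Insig1 fell and Insig2 did not pass. Srebf2 (ENSMUSG00000022463, chromosome 15, 82147181 to 82205379 in GRCm38.p6), which encodes SREBP2, had 5.87, 5.52 and 4.93 FPKM in Wtap-HKO replicates 1 to 3, against 13.6, 12.8 and 10.4 FPKM in Wtap-flox. The Wtap-HKO livers were all under the lowest control, and Srebf2 fell by 1.14 ± 0.13 on the log2 scale (SE, adjusted p = 0.00104). The call stood on the TPM scale at -0.57. The intronic miRNA gene Mir33 and the gene model Gm49502 lie on the same strand within Srebf2, and how reads there were counted is not given in the sources used here. Scap, the escort of SREBP2, had 12.4, 13.9 and 12.8 FPKM in Wtap-HKO and 25.7, 24.1 and 20.6 FPKM in Wtap-flox. Its log2 fold change was -0.83 ± 0.11 (SE, adjusted p = 0.00160), and on the TPM scale, at -0.25, it was not called.

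Insig1 (ENSMUSG00000045294, chromosome 5, 28071363 to 28078662), an anchor of the SCAP complex and itself a target of SREBP2, changed most of the 26 genes. It had 16.2, 11.1 and 11.9 FPKM in Wtap-HKO, against 103, 68.9 and 66.1 FPKM in Wtap-flox. The groups were far apart, and the mean in Wtap-HKO was 0.165 times that in Wtap-flox. On the log2 scale Insig1 fell by 2.57 ± 0.21 (SE, adjusted p = 0.000372), and on the TPM scale its value was -2.00. Without Wtap-flox replicate 1, its highest control, it was -2.37. Insig2, the second anchor, is known in liver for a transcript that insulin lowers. It had 52.5, 90.0 and 72.8 FPKM in Wtap-HKO and 49.0, 101 and 83.3 FPKM in Wtap-flox, so the groups overlapped over nearly the whole range (log2 fold change -0.087 ± 0.30, SE, adjusted p = 0.839). Insig2 was also the gene in which Wtap-flox replicate 1 was the lowest control.

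Promoter sequences were available for 22 of the 26 genes in RefSeq (GRCm38.p6), and those of Fdps, Fdft1, Sqle and Stard4 were not analysed here. The stretches below are those of both sensing genes that changed most, of a synthesis gene that holds the sterol element letters beside NF-Y boxes (Hmgcs1), of an enzyme that fell with little spread (Ebp) and of the gene that rose (Tmem97). Each runs 5′ to 3′ on the strand of its gene and stops before the first annotated transcript start. Capitals mark NF-Y boxes (CCAAT, or ATTGG when read on the other strand) and the sterol element letters TCACCCCA or CACCCCAC. Srebf2 is at chr15:82147019-82147180 on the plus strand, Insig1 at chr5:28071162-28071362 on the plus strand, Hmgcs1 at chr13:119690101-119690350 on the plus strand, Ebp at chrX:8193513-8193762 on the minus strand and Tmem97 at chr11:78550778-78550985 on the minus strand.
Srebf2: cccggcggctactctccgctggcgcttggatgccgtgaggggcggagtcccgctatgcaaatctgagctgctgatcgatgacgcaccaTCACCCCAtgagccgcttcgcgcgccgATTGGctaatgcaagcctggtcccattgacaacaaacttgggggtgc
Insig1: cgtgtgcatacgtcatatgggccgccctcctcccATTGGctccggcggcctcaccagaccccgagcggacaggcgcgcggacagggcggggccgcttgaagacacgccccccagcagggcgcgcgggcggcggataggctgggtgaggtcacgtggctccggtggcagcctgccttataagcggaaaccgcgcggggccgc
Hmgcs1: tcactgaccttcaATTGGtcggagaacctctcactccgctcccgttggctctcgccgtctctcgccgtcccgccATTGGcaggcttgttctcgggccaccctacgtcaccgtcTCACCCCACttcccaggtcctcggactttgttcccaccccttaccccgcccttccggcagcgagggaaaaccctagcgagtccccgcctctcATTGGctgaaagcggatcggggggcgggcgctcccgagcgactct
Ebp: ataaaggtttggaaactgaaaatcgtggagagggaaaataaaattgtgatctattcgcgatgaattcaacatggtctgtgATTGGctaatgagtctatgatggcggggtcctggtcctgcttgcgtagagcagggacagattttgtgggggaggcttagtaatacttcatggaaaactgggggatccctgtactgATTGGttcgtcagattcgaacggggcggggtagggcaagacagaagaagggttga
Tmem97: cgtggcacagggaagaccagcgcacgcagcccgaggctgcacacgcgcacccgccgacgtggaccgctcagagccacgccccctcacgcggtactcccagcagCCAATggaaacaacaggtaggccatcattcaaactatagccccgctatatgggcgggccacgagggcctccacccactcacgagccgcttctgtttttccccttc

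In the window of 250 bases before to 50 after the RefSeq start, searched on both strands, CCAAT was found in 20 of the 22 genes, against 41.1% of all genes with a promoter. Scap and Acat2 held no CCAAT in it. The Sp1 letters GGGCGG were also in 20 of 22, all but Pmvk and Ggps1, against 38.2% of all genes. The core CACCCCAC was in Acat2 and Hmgcs1 and in 3.30% of all genes, and with 1 free base (CACNCCAC) Insig1 was added, against 7.12%. The Insig1 match is after the end of the stretch shown. The E-box-like TCACNTGA was in Insig2, against 4.78%. The letters TCACCCCA, which overlap CACCCCAC in Hmgcs1 and were chosen after the sequences were read, were in Srebf2 and Hmgcs1 and in 1.77% of all genes. A match is a string of letters and not a bound site. Tmem97, which rose, and Mylip, Insig2 and Dhcr7, which did not pass, held both CCAAT and GGGCGG, while of the genes that fell Scap held no CCAAT and Ggps1 no GGGCGG.

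From acetyl-CoA to the prenyl diphosphates, all 8 genes had a log2 fold change under 0 as deposited. Of these, 3 were called lower (Idi1, Fdps and Ggps1), where 20.7% of all genes were. On the TPM scale 5 of the 8 were under 0 and 1, Idi1, was called lower, where 6.02% of all genes were. Hmgcs1, the cytosolic synthase of HMG-CoA, had 14.1, 16.2 and 13.0 FPKM in Wtap-HKO, against 36.3, 20.99 and 18.4 FPKM in Wtap-flox. The groups did not overlap, but the controls were wide, and with -0.74 ± 0.25 on the log2 scale (SE, adjusted p = 0.0525) Hmgcs1 missed the threshold. Over the alternatives its adjusted p was between 0.0301 and 0.584. It passed without Wtap-flox replicate 3 (0.0320), with a filter of 1 FPKM (0.0445) and among protein-coding genes alone (0.0305). Hmgcs1 also passed with the replicate block (0.0492) and in voom (0.0301). Mvd, the decarboxylase that yields isopentenyl diphosphate, also did not overlap, with 2.79, 3.27 and 1.89 FPKM in Wtap-HKO and 10.1, 4.18 and 3.93 FPKM in Wtap-flox (adjusted p = 0.0662). Mvd passed among protein-coding genes alone (adjusted p = 0.0386) and with the replicate block (0.0445). The mean of Mvd was 0.438 times that of the controls, and Wtap-flox replicate 1 was 2.48 times the mean of the other controls.

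Idi1, which isomerises isopentenyl diphosphate, fell most among these enzymes on the log2(FPKM + 0.2) scale, whereas by the ratio of mean FPKM the low gene Fdps, at 0.312, was below Idi1, at 0.333. Idi1 had 5.14, 5.71 and 5.07 FPKM in Wtap-HKO, against 23.2, 13.1 and 11.5 FPKM in Wtap-flox. The Wtap-HKO livers were closely alike and all under the lowest control, and Idi1 fell by 1.48 ± 0.25 on the log2 scale (SE, adjusted p = 0.00437). The call stood on the TPM scale at -0.92. Copies at 95% identity or more covered 22.6% of the Idi1 transcript, but held few reads, 324 against 3427 of Idi1 over all libraries. Ggps1, the synthase of geranylgeranyl diphosphate, had 2.12, 1.49 and 2.13 FPKM in Wtap-HKO and 3.20, 2.80 and 3.40 FPKM in Wtap-flox. It did not share the high value of Wtap-flox replicate 1. Its log2 fold change was -0.67 ± 0.17 (SE, adjusted p = 0.0186) and -0.13 on the TPM scale, where it was not called. Its call was also lost without Wtap-flox replicate 1 (adjusted p = 0.0586) or replicate 3 (adjusted p = 0.0570), and over the alternatives it was between 0.00964 and 0.599.

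Fdps, the synthase of farnesyl diphosphate, is uncertain. It was listed at 0.170, 0.253 and 0.203 FPKM in Wtap-HKO and at 1.02, 0.605 and 0.378 FPKM in Wtap-flox, far under its neighbours in the pathway. This was 169 reads over all 6 libraries, while 5 copies matched 76.8% of its transcript and held 546 reads. The genes Gm22935 and Gm43738 also overlap Fdps on the same strand. The gene length used was 4208 bases, against 1382 for its longest annotated coding transcript, which lowers its FPKM. How the authors' counting split reads between Fdps, these copies and the overlapping genes is not given in the sources used here. Its log2 fold change was -1.03 ± 0.32 (SE, adjusted p = 0.0428), and on the TPM scale, at -0.82, it was not called. Leaving out any single library but Wtap-flox replicate 3 lost the call, with adjusted p between 0.0665 and 0.126, as did a pseudocount of 1 (0.0561) and no filter (0.0709). Over all alternatives the range was 0.0193 to 0.126.

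The enzymes Acat2, Mvk and Pmvk, a thiolase and the kinases of mevalonate and phosphomevalonate, overlapped between the groups. Acat2 averaged 14.2 ± 2.05 FPKM in Wtap-HKO and 17.7 ± 3.01 FPKM in Wtap-flox (SD, n = 3 each), and 65.6% of its transcript was shared with other annotated genes at 95% identity or more. Among these were Acat3, with 10403 reads over all libraries, and Tcp1, with 14963, against 4112 of Acat2, so Acat2 is uncertain. Mvk averaged 4.22 ± 0.21 FPKM in Wtap-HKO and 5.18 ± 2.18 FPKM in Wtap-flox. Its log2 fold change of -0.21 was 0.098 without Wtap-flox replicate 1 and 0.37 on the TPM scale. Pmvk averaged 11.6 ± 2.55 FPKM in Wtap-HKO and 14.7 ± 4.06 FPKM in Wtap-flox. The log2 fold changes of Acat2 and Pmvk, -0.31 and -0.32, were both 0.27 on the TPM scale, and adjusted p as deposited was 0.162 for Acat2, 0.566 for Mvk and 0.323 for Pmvk.

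**Figure D3:**
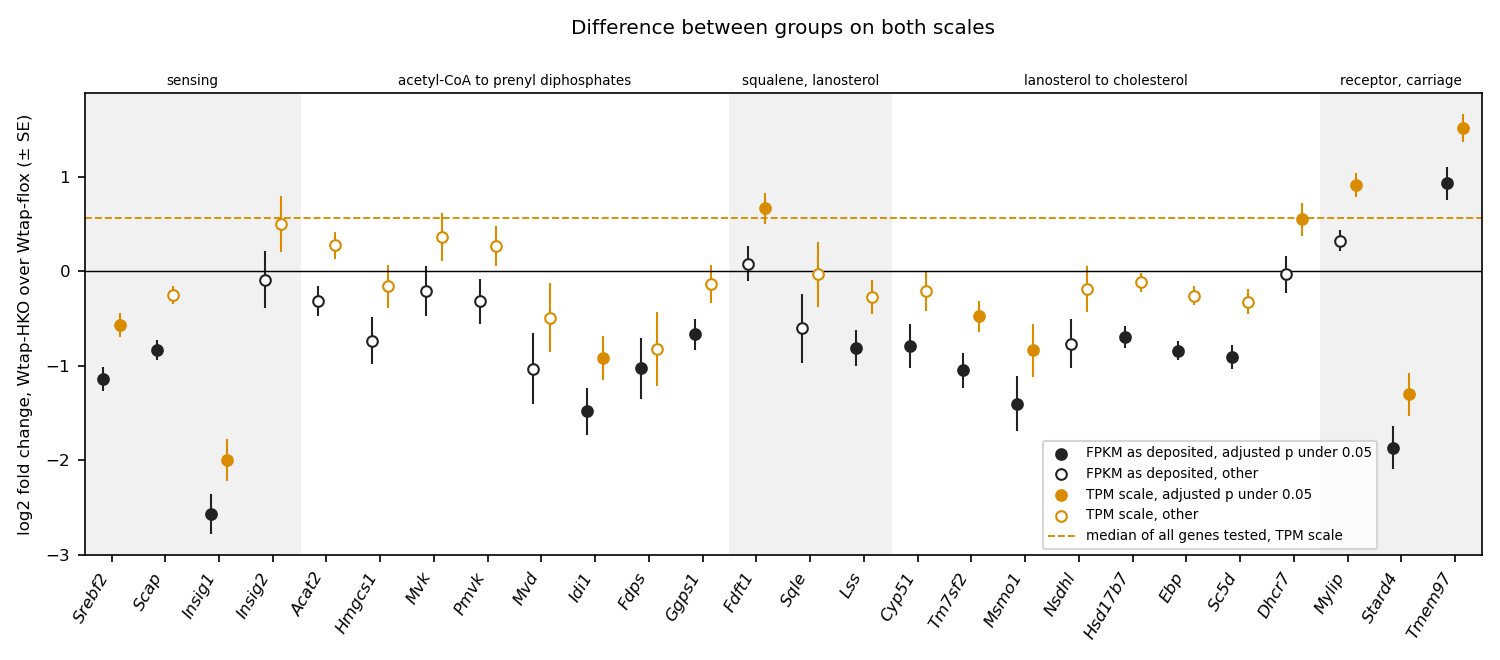
Log2 fold change of Wtap-HKO over Wtap-flox (points, with bars of ± SE) for each sterol gene on the FPKM as deposited (black) and on the TPM scale (orange), filled where the adjusted p was under 0.05. The dashed line is the median of all genes on the TPM scale (0.56), above which 3 of the 26 genes lie, and Insig1 is the lowest gene on both scales.

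At the squalene steps the 3 genes differed from each other. Fdft1, squalene synthase and the first enzyme committed to sterols, had 17.9, 20.3 and 17.6 FPKM in Wtap-HKO, against 23.6, 15.2 and 15.1 FPKM in Wtap-flox. All Wtap-HKO livers lay between the control replicates, and the log2 fold change was 0.081 ± 0.18 (SE, adjusted p = 0.751). On the TPM scale, at 0.67, it was called higher. Fdft1 overlaps Ctsb on the other strand, and 33.7% of its transcript matched a copy with 6 reads. Sqle, squalene epoxidase, had 5.07, 8.93 and 8.03 FPKM in Wtap-HKO and 18.9, 9.47 and 7.36 FPKM in Wtap-flox. The groups overlapped through Wtap-flox replicate 3, and its adjusted p was 0.228. Lss, which folds the epoxide into lanosterol, fell, with 2.25, 2.42 and 2.06 FPKM in Wtap-HKO and 5.45, 3.66 and 3.38 FPKM in Wtap-flox. Its log2 fold change was -0.81 ± 0.19 (SE, adjusted p = 0.0147), which was lost on the TPM scale, at -0.27, and without Wtap-HKO replicate 3 (adjusted p = 0.0548), while the alternatives spanned 0.00523 to 0.243.

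From lanosterol to cholesterol, 6 of 8 genes fell as deposited (Cyp51, Tm7sf2, Msmo1, Hsd17b7, Ebp and Sc5d), where 20.7% of all genes did. None of the 8 rose, where 19.5% of all genes did. On the TPM scale 2 were lower, where 6.02% of all genes were, and 1, Dhcr7, was higher, where 48.8% were. Msmo1, the methylsterol oxidase, fell most. It had 6.33, 6.07 and 6.40 FPKM in Wtap-HKO, against 28.05, 12.5 and 13.7 FPKM in Wtap-flox. The Wtap-HKO livers were within 1.05 times of each other, while Wtap-flox replicate 1 was 2.14 times the mean of the other controls. The log2 fold change was -1.40 ± 0.29 (SE, adjusted p = 0.00929), and the call stood on the TPM scale at -0.83. Tm7sf2, a sterol reductase, had 9.39, 12.1 and 7.74 FPKM in Wtap-HKO and 23.2, 20.8 and 16.7 FPKM in Wtap-flox. Its log2 fold change was -1.05 ± 0.19 (SE, adjusted p = 0.00554) and -0.47 on the TPM scale, where it was also called. It overlaps Vps51 on the same strand, and reads in the shared stretch cannot be told apart.

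Cyp51, the demethylase of lanosterol, had 16.7, 20.5 and 16.9 FPKM in Wtap-HKO, against 44.5, 29.5 and 23.1 FPKM in Wtap-flox. The groups did not overlap (log2 fold change -0.79 ± 0.23, SE, adjusted p = 0.0341). Its call was lost without Wtap-HKO replicate 1 (adjusted p = 0.0919), Wtap-HKO replicate 3 (0.0992) or Wtap-flox replicate 2 (0.0714), with 0.0142 to 0.426 over all alternatives, and also on the TPM scale, at -0.21, with no filter (0.0603) and without the variance trend (0.0550). Nsdhl, the dehydrogenase that works with Msmo1, had nearly the same fold change, -0.77 ± 0.26 (SE), and narrowly missed the threshold (adjusted p = 0.0549), with 10.2, 11.6 and 9.12 FPKM in Wtap-HKO and 26.7, 16.1 and 12.7 FPKM in Wtap-flox. It passed without Wtap-flox replicate 3 (adjusted p = 0.0231), with a filter of 1 FPKM (0.0463) and among protein-coding genes alone (0.0318). Nsdhl also passed with the replicate block (0.0429) and in voom (0.0331). The alternatives together spanned 0.0231 to 0.533.

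Hsd17b7, Ebp and Sc5d fell by similar amounts with little spread within the groups. Hsd17b7, the ketosterol reductase, had 9.86, 12.005 and 9.83 FPKM in Wtap-HKO and 18.9, 16.2 and 16.4 FPKM in Wtap-flox (log2 fold change -0.69 ± 0.12, SE, adjusted p = 0.00414). Ebp, the sterol isomerase, had 47.0, 44.6 and 40.1 FPKM in Wtap-HKO and 82.6, 82.2 and 71.7 FPKM in Wtap-flox (-0.84 ± 0.10, SE, adjusted p = 0.00123). Sc5d, the sterol desaturase, had 46.0, 40.8 and 41.9 FPKM in Wtap-HKO and 96.2, 73.7 and 73.1 FPKM in Wtap-flox (-0.90 ± 0.13, SE, adjusted p = 0.00227). Without Wtap-flox replicate 1 the log2 fold changes of Hsd17b7, Ebp and Sc5d were -0.62, -0.81 and -0.77. On the TPM scale they were -0.12, -0.26 and -0.32, and none was called. Dhcr7, the last reductase on the route through Sc5d, did not pass. It had 11.8, 13.1 and 11.5 FPKM in Wtap-HKO and 16.9, 10.96 and 10.2 FPKM in Wtap-flox, so the Wtap-HKO livers lay within the range of the controls (log2 fold change -0.032 ± 0.19, SE, adjusted p = 0.908). On the TPM scale Dhcr7 was called higher, at 0.55, and without Wtap-flox replicate 1 its value as deposited was 0.19.

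The 3 genes of receptor control and sterol carriage each had groups that did not overlap. Every Wtap-HKO library was lower in Stard4, as in 27.4% of all genes tested, and higher in Tmem97 and Mylip, as in 26.8%. Stard4, a soluble carrier that moves sterol between membranes, had 7.23, 5.29 and 5.30 FPKM in Wtap-HKO, against 30.4, 19.3 and 17.9 FPKM in Wtap-flox. After Insig1 it fell most of the 26 genes, by 1.87 ± 0.22 on the log2 scale (SE, adjusted p = 0.00123), and its TPM value, -1.30, also passed. Tmem97 (ENSMUSG00000037278, chromosome 11, 78541817 to 78550777), a sterol-regulated membrane protein of the endoplasmic reticulum and lysosomes, had 85.3, 114 and 86.4 FPKM in Wtap-HKO and 61.4, 46.5 and 42.1 FPKM in Wtap-flox. It rose by 0.93 ± 0.18 (log2, SE, adjusted p = 0.00665), by 1.52 on the TPM scale and by 1.09 without Wtap-flox replicate 1. Copies matched 38.5% of its transcript but held 23 reads, against 10997 of Tmem97. Mylip, the ubiquitin ligase that marks the LDL receptor for degradation and a known target of the oxysterol receptors LXR, had 6.71, 6.06 and 6.18 FPKM in Wtap-HKO and 5.36, 4.42 and 5.27 FPKM in Wtap-flox. At 0.32 ± 0.11 (log2, SE, adjusted p = 0.0547) it missed the threshold as deposited. Mylip did pass on the TPM scale, at 0.91, and in voom on the rebuilt reads, at 0.37. It also passed with a filter of 1 FPKM and among protein-coding genes alone (adjusted p = 0.0417 by limma in each). Over the alternatives its adjusted p was between 0.00118 and 0.152.

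Ratios of 2 genes within a library, which are free of any scaling between libraries, were compared for 8 pairs by permuting the log2 ratios over the 6 libraries (exact, two-sided). With 3 livers against 3 the smallest p this test allows is 0.1. Insig1 to Insig2, the ratio of both anchors, was 0.310, 0.123 and 0.164 in Wtap-HKO, against 2.11, 0.684 and 0.794 in Wtap-flox. All Wtap-HKO livers were under all controls, with a geometric mean ratio 0.176 times that of Wtap-flox (exact permutation p = 0.1, 0.133 after Benjamini-Hochberg adjustment over the 8 pairs). Dhcr7 to Sc5d, enzymes that act next to each other, was 0.257, 0.321 and 0.274 in Wtap-HKO and 0.176, 0.149 and 0.140 in Wtap-flox, 1.84 times higher in Wtap-HKO with no overlap. Sqle to Fdft1, again neighbouring enzymes, was 0.283, 0.440 and 0.457 in Wtap-HKO and 0.801, 0.625 and 0.488 in Wtap-flox, 0.616 times that of the controls.

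The ratios Insig1 to Scap, Srebf2 to Scap and Hmgcs1 to Acat2 were also lower in every Wtap-HKO library than in any control, by 1.75, 0.32 and 0.43 on the log2 scale. All 6 pairs without overlap had the smallest p, 0.1, and the adjusted value 0.133. Fdps to Ggps1 (exact permutation p = 0.2, adjusted 0.229) and Lss to Sqle (p = 0.5, adjusted 0.5) overlapped. Insig1 was thus low against both Insig2 and Scap in all 3 Wtap-HKO livers.

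**Figure D4:**
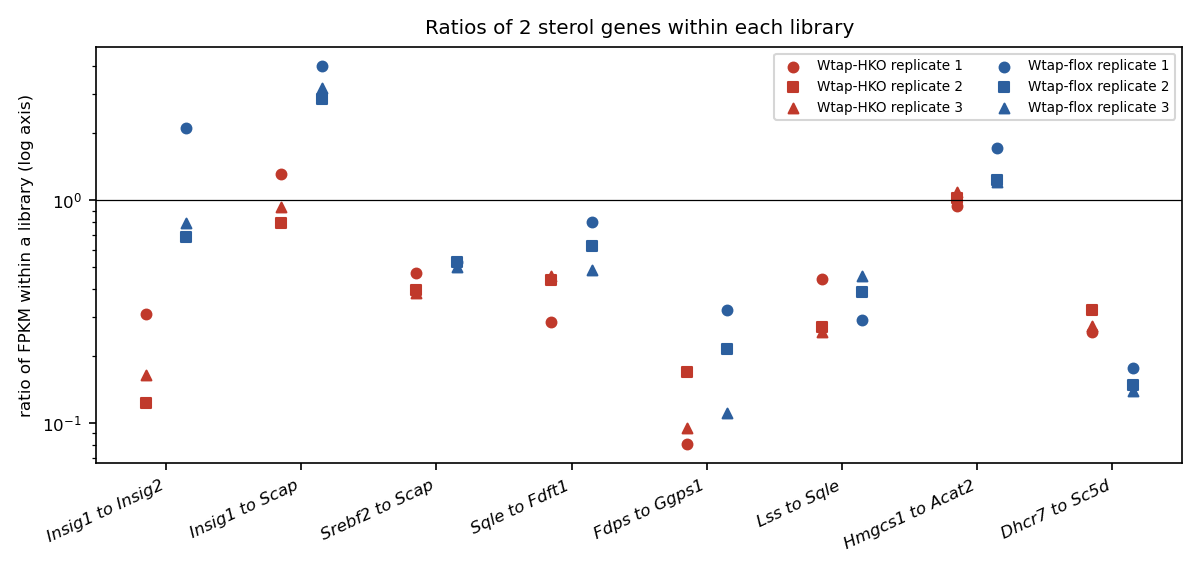
Ratio of the FPKM of 2 sterol genes within each library (log axis) for 8 pairs, Wtap-HKO (red) left of Wtap-flox (blue), with a marker shape for each replicate number and a line at 1. The groups do not overlap in 6 pairs, and Insig1 to Insig2 is the furthest apart, at 0.123 to 0.310 in Wtap-HKO and 0.684 to 2.11 in Wtap-flox.

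Lists of related genes are read against the same shares of all genes, 19.5% higher and 20.7% lower as deposited and 48.8% higher and 6.02% lower on the TPM scale. Of 14 genes whose proteins move, cut and degrade the SREBP and sterol machinery, 3 were higher, a share near that of all genes, and 7 were lower, with a median of -0.20. Read on the TPM scale, 7 were higher, again near that share, and 2 were lower (median 0.38). Pgrmc1, a heme-binding membrane protein reported to bind SCAP and INSIG, had 322, 291 and 250 FPKM in Wtap-HKO and 609, 622 and 561 FPKM in Wtap-flox (log2 fold change -1.06 ± 0.13, SE, adjusted p = 0.00121). The isoprenoid branch uses farnesyl diphosphate for prenylation, dolichol and ubiquinone. Of its 13 genes 1 was higher and 3 were lower, the lower share being near that of all genes, with a median of 0.028, whereas on the TPM scale 11 were higher and none lower, with a median of 0.61. The prenyltransferase subunit Fntb was higher by 0.65 ± 0.17 and the methyltransferase Icmt fell by 0.44 ± 0.11 (log2, SE). On the TPM scale Fntb was higher by 1.26 and Icmt, at 0.14, turned direction and was not called. As deposited, neither call stood without Wtap-HKO replicate 1 or 3 or without Wtap-flox replicate 1 or 2. Adjusted p by limma was then 0.0639 to 0.0713 for Fntb and 0.0507 to 0.0631 for Icmt, and over all alternatives 0.00248 to 0.0713 for Fntb and 0.0108 to 0.252 for Icmt.

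On the acetyl-CoA and fatty acid side of the SREBP family, 7 of 9 genes were lower and none higher, where 20.7% of all genes were lower, with a median of -1.24. Aacs and Rdh11 did not pass, and the TPM scale left 6 lower and put 1 higher, its median being -0.65. Lpin1, a phosphatidate phosphatase, had 8.47, 21.6 and 23.9 FPKM in Wtap-HKO, against 128, 84.4 and 79.8 FPKM in Wtap-flox (log2 fold change -2.52 ± 0.40, SE, adjusted p = 0.00338). Srebf1, which encodes the fatty acid member of the family, had 12.8, 7.49 and 7.40 FPKM in Wtap-HKO and 33.5, 26.5 and 27.0 FPKM in Wtap-flox (-1.67 ± 0.22, SE, adjusted p = 0.00188). Of the oxysterol receptors and their targets, 9 of 10 were tested, 2 were higher and 4 lower, where 19.5% of all genes were higher and 20.7% lower, with a median of -0.061. On the TPM scale 6 were higher and 2 lower (median 0.53), where 48.8% of all genes were higher and 6.02% lower. Abcg8, a subunit of the canalicular sterol exporter, had 15.5, 12.4 and 12.5 FPKM in Wtap-HKO and 52.9, 48.9 and 41.3 FPKM in Wtap-flox (-1.81 ± 0.13, SE, adjusted p = 0.000289). Arl4c, a small GTPase, moved in the opposite direction, with 2.39, 1.56 and 1.82 FPKM in Wtap-HKO and 0.561, 0.579 and 0.434 FPKM in Wtap-flox (1.54 ± 0.20, SE, adjusted p = 0.00162).

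Markers of cell types moved with the groups. Of 7 hepatocyte markers 6 were lower and none higher as deposited, and 2 were lower on the TPM scale. Their summed level was 27000 to 30720 FPKM in Wtap-HKO and 58490 to 65690 FPKM in Wtap-flox. Hepatocyte identity of the tissue was plain, since Alb, the albumin gene, averaged 19668 FPKM in Wtap-HKO and 44356 FPKM in Wtap-flox. As deposited, where 19.5% of all genes were higher, 6 of 8 Kupffer cell and macrophage markers were higher, with a summed level of 443 to 543 FPKM in Wtap-HKO and 235 to 281 FPKM in Wtap-flox. Of 6 stellate cell and fibroblast markers 5 were higher (45.0 to 103 FPKM in Wtap-HKO, 24.1 to 32.6 FPKM in Wtap-flox), of 5 cholangiocyte markers 3 (75.7 to 262 FPKM in Wtap-HKO, 39.7 to 63.3 FPKM in Wtap-flox), and of 6 endothelial markers 2 (43.1 to 49.97 FPKM in Wtap-HKO, 35.2 to 45.1 FPKM in Wtap-flox). Of 3 neutrophil markers tested all 3 were higher (22.01 to 31.9 FPKM in Wtap-HKO, 4.87 to 10.9 FPKM in Wtap-flox for the 4 listed), and of 4 T, NK and B cell markers tested 1 was (2.74 to 3.33 FPKM in Wtap-HKO, 1.84 to 2.49 FPKM in Wtap-flox for the 6 listed). No marker of these other cell types was called lower on either scale. Where 48.8% of all genes were higher, on the TPM scale, 8 Kupffer cell and macrophage, 6 stellate cell and fibroblast, 4 cholangiocyte, 6 endothelial, 3 neutrophil and 2 T, NK and B cell markers were higher. The markers under the filter, Cd3e, Ms4a1 and Cxcr2, averaged 0.209, 0.0828 and 0.177 FPKM in Wtap-HKO and 0.150, 0.0662 and 0.0399 FPKM in Wtap-flox. The part of the cell makeup in the lower sterol genes was not tested.

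By FPKM, the order of the sterol genes differed between the groups. This order rests on the gene lengths used, which differ from the coding transcript by unequal amounts. In Wtap-HKO Tmem97 had the highest mean, 95.1 ± 15.96 FPKM, followed by Insig2 at 71.7 ± 18.8, Ebp at 43.9 ± 3.53 and Sc5d at 42.9 ± 2.74 FPKM (SD, n = 3), where neither Tmem97 and Insig2 nor Ebp and Sc5d were separated beyond their spread. In Wtap-flox Sc5d (81.0 ± 13.2 FPKM), Insig1 (79.4 ± 20.7), Ebp (78.8 ± 6.17) and Insig2 (77.7 ± 26.3) were not separated from each other (SD, n = 3), and Tmem97 followed at 50.003 ± 10.1 FPKM. The summed FPKM of the 26 genes was 419 to 499 in Wtap-HKO and 576 to 795 in Wtap-flox. The sum over the 8 genes from lanosterol to cholesterol was 143 to 161 FPKM in Wtap-HKO and 238 to 337 FPKM in Wtap-flox, and that over the 8 genes up to the prenyl diphosphates was 47.5 to 61.6 FPKM in Wtap-HKO and 66.8 to 121 FPKM in Wtap-flox. As deposited, each of these sums was lower in every Wtap-HKO library. As TPM all 3 overlapped, at 1346 to 1493 in Wtap-HKO and 1237 to 1626 in Wtap-flox over the 26 genes, 461 to 514 in Wtap-HKO and 511 to 690 in Wtap-flox from lanosterol to cholesterol, and 153 to 184 in Wtap-HKO and 144 to 248 in Wtap-flox up to the prenyl diphosphates.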

How the data were processed

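Paired-end reads of liver RNA were aligned to GRCm38.p6 with TopHat2 and counted per gene with HTSeq 0.6.1, per the submitters' processing notes. Annotation release, strand setting and FPKM software: not given in the sources used here. The authors deposited FPKM per gene, with replicates kept apart, and these were the values tested. FPKM times gene length were whole multiples of 1 step per library (100% of values, within 0.01 reads), which gave the reads behind them. Within groups, libraries differed beyond sampling noise (chi-square of 14.2 to 26.5 per degree of freedom between pairs), so each counted as 1 replicate.

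Genes averaging 0.2 FPKM or more in the 6 libraries were tested on log2(FPKM + 0.2) with limma 3.58.1 (lmFit, eBayes with trend, two-sided) in R 4.3.3, with Benjamini-Hochberg adjustment over all 16547 genes and a call at an adjusted p under 0.05. Fold changes on this scale understate the change of low genes. The TPM scale set each library to the same sum of FPKM. Ratios were tested by exact permutation. Reads and motifs were handled in Python 3.11.15. The fits were run on simulated reads with a single dispersion for all genes, few changed genes and no scaling between groups. That run does not check them under the conditions of these data. All 26 sterol genes, Wtap and, from each list of related genes, the 2 called genes that changed most and averaged 1 FPKM or more are named, and the marker lists are given by counts. A gene that this rule names is not reported here. The genes, lists and tests were chosen with earlier results of these data known. Alternatives were pseudocounts of 1 and 0.05, filters of 1 FPKM or none, the TPM scale, median-of-ratios scaling, no trend, protein-coding genes alone, a replicate block, voom on the rebuilt reads, and leaving out each library.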

Additional observations from a re-analysis of the deposited data

How the results depend on the processing

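The TPM scale changed most. It gave 4 sterol genes higher and 6 lower with a median of -0.198, and 8074 genes higher and 996 lower over all genes. It turned the direction of Insig2 (0.50), Acat2 (0.27), Mvk (0.37), Pmvk (0.27) and Dhcr7 (0.55). A filter of 1 FPKM, protein-coding genes alone and voom each gave 2 sterol genes higher, Mylip added. The count of all genes higher was 2131 to 2926 when a library was left out, lowest without Wtap-HKO replicate 3, against 3222 with all. The same fits gave 11 to 15 sterol genes lower, 1 higher and medians of -0.93 to -0.61. Direction also turned among 4 genes that were called in none of these fits, with ranges of -0.39 to 0.13 for Insig2 (0.12 without Wtap-HKO replicate 1), -0.46 to 0.098 for Mvk, -0.026 to 0.29 for Fdft1 (-0.023 without Wtap-flox replicate 2) and -0.17 to 0.19 for Dhcr7 (0.0065 without Wtap-HKO replicate 3), and voom gave Dhcr7 0.0052. The cause was not tested. Of 415 alternative values of single sterol genes, 361 kept their direction and side of the threshold, 24 lost a call, 17 gained a call and 13 turned direction. Part of this agreement was fixed in advance. Median-of-ratios scaling had the factor 1.006 in every library, so it could change almost nothing. The filters, no trend, protein-coding genes alone and the replicate block keep the log2 fold change, so only calls could change there. Same-numbered libraries deviated together by correlations of 0.015 to 0.064, and libraries with different numbers by -0.063 to 0.022. Values this small do not settle whether the numbers pair the libraries. The replicate block gave 1 sterol gene higher and 16 lower, with 3057 and 3508 over all genes. Fdps had the fewest reads, 169 in all. Its call was lost under the block, and Hmgcs1, Mvd and Nsdhl gained one.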
